A study of Mus musculus with 6 samples.

Results

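Trim proteins carry a tripartite motif of a RING finger, a B-box and a coiled coil, and most act as E3 ubiquitin ligases, which attach ubiquitin to other proteins. Many end in a SPRY domain that recognises the target. Several are made on exposure to interferon and serve in antiviral defence, either by tagging sensors and adaptors of the RNA and DNA sensing pathways or by binding viral capsids and antibody-coated particles. The 10 genes described here were listed by symbol for that role: Trim14, Trim21, Trim25, Trim26, Trim30a, Trim30d, Trim34a, Trim12a, Trim12c and Trim56. All 10 were found among the 26012 genes of the deposited table and all 10 passed a minimum mean of 1 normalized count (reads on a gene divided by a size factor for the library), which left 21126 genes for testing and 47 other genes named Trim with a number.

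Ventricles of 6 male C57BL/6 mice, 8 weeks of age, gave the RNA. Each had a myocardial infarction (MI), made by tying off the left anterior descending branch of the coronary arteries. With the MI, 3 hearts received control mimic and 3 received miR-19a and miR-19b mimics together, 10 μg per heart in a lipid carrier, by injection into the heart. All 6 hearts were therefore infarcted and injected and were collected on day 4. No uninjured heart is among these libraries, and the mimics were not directed to any cell type. The comparison asks how the added miRNAs altered gene expression in the infarcted heart, here for the antiviral Trim genes.

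Between 19398196 and 23645308 reads were counted on genes per heart. Cardiomyocyte markers summed to between 352267 and 1034730 normalized counts, with both ends of that range in miR-19a/19b mimic hearts, the lowest in replicate 3 and the highest in replicate 1. The sum of the 9 skeletal muscle markers ranged from 251 to 424 except in 1 heart, miR-19a/19b mimic replicate 1, where it was 3399. Results that move without either heart are given with that heart left out.

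The mature sequences of the injected miRNAs are shown because their seed, bases 2 to 8, sets which transcripts they can pair with. Capitals mark the seed, and the sequences are from RefSeq (GRCm38.p6).
miR-19a-3p: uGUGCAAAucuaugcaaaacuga
miR-19b-3p: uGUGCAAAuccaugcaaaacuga
Both share 1 seed, so the sites searched were 3: TTTGCACA (8 bases), TTTGCAC (7) and TTGCACA (7), the first of which holds both of the others. The 3′ UTRs of the members (the longest of each in GENCODE M21) ran from 490 bases in Trim12a to 6812 bases in Trim56, and 0 of the 10 held any of the 3. Of the 15866 tested genes with an annotated 3′ UTR, 19.3% held at least 1. A window without these letters says nothing of pairing by other sites.

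The promoters of the members were searched on both strands for the core of the interferon-stimulated response element, GAAANNGAA, the DNA letters that interferon-activated factors bind. Of the 10 genes, 9 had a promoter in the RefSeq table (250 bases before to 50 after the start). Of those 9, 8 held the core at 1 start or more, namely Trim21, Trim34a, Trim12a, Trim12c, Trim30a, Trim30d, Trim25 and Trim26. It was present in 8.56% of all 32851 promoters, in 7.45% of the 16644 promoters of tested genes and in 4 of the 35 other Trim genes with a promoter. The percentages count each promoter apart, so a gene with more than 1 start had more chances of a match. The gamma-activated site TTCNNNGAA was found in 0 of the 9 and in 8.3% of all promoters. The stretches around the matches are shown because they are what these promoters have in common. Each is on the strand of its gene, GRCm38.p6, with the match in capitals, so that a match on the other strand reads as its reverse complement.
Trim30a, chr7:104465200-104465248, minus: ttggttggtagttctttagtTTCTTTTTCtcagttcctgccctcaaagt
Trim30d, chr7:104507861-104507909, minus: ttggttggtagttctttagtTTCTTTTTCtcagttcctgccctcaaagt
Trim12a, chr7:104315456-104315504, minus: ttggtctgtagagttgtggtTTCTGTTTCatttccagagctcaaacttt
Trim12c, chr7:104353349-104353397, minus: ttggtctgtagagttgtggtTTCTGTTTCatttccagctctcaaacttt
Trim34a, chr7:104244448-104244496, plus: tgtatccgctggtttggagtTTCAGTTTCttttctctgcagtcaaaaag
Trim21, chr7:102565435-102565489, minus: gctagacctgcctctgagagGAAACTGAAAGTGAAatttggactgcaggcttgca
Trim25, chr11:88999374-88999422, plus: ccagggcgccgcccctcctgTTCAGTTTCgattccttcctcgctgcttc
Trim26, chr17:36836967-36837021, plus: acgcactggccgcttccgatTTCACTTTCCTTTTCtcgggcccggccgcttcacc
Over these windows the Trim30a and Trim30d stretches were identical in all 49 bases, and those of Trim12a and Trim12c differed at 2 of 49. Trim21 and Trim26 each held 2 overlapping matches. Matches began between 9 and 159 bases before the start in Trim25, Trim12c, Trim30a, Trim30d and Trim26, and 11 or 13 bases after it in Trim34a, Trim12a and Trim21. A second annotated start of Trim30a also held the core, 3 bases after it. Trim56 had no match, and these are matches of letters, not measured binding.

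In the infarcted hearts all 10 genes had a lower mean after miR-19a/19b mimic than after control mimic. The 6 members on chromosome 7, Trim30a, Trim30d, Trim34a, Trim21, Trim12c and Trim12a, had each of their miR-19a/19b mimic hearts below each of their control mimic hearts, with means 0.663 to 0.809 times those of the controls. The other 4, Trim25, Trim14, Trim26 and Trim56, overlapped between the groups, with means 0.867 to 0.962 times those of the controls. Without miR-19a/19b mimic replicate 3, 9 of the 10 were lower without overlap, Trim56 being the exception, so that the difference between both sets in overlap rests on that heart. With all 6 hearts, groups did not overlap in the lower direction for 5.3% of all genes tested. In the higher direction, where 0 of the 10 fell, the share was 3.9%. These shares were not counted without miR-19a/19b mimic replicate 3. Groups of fewer hearts separate more readily by chance, so the 9 of 10 has no matching share to be read against. The split by chromosome was noticed after the values were seen, and its difference was not tested.

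No member passed the test across all genes. Limma called 0 of the 21126 genes at an adjusted p-value under 0.05 (0%), and each member had an adjusted p of 0.9996. At an unadjusted p-value under 0.05, 6 of the 10 members were lower against 2.63% of all genes, and 0 were higher against 1.39%. These 6 are the chromosome 7 members, and the count was 3 without replicate 1 of either group, Trim30a, Trim30d and Trim34a in both cases. The median log2 fold change of the 10 was -0.31, against 0.00 for all genes tested, and it was -0.20 without miR-19a/19b mimic replicate 1. With DESeq2 on the recovered reads, 28 genes were lower and 1 higher at an adjusted p-value under 0.05, and with edgeR's quasi-likelihood test 0 and 0. The smallest adjusted p of any member in the alternatives with all 6 hearts was 0.378, for Trim30a.

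**Figure D1:**
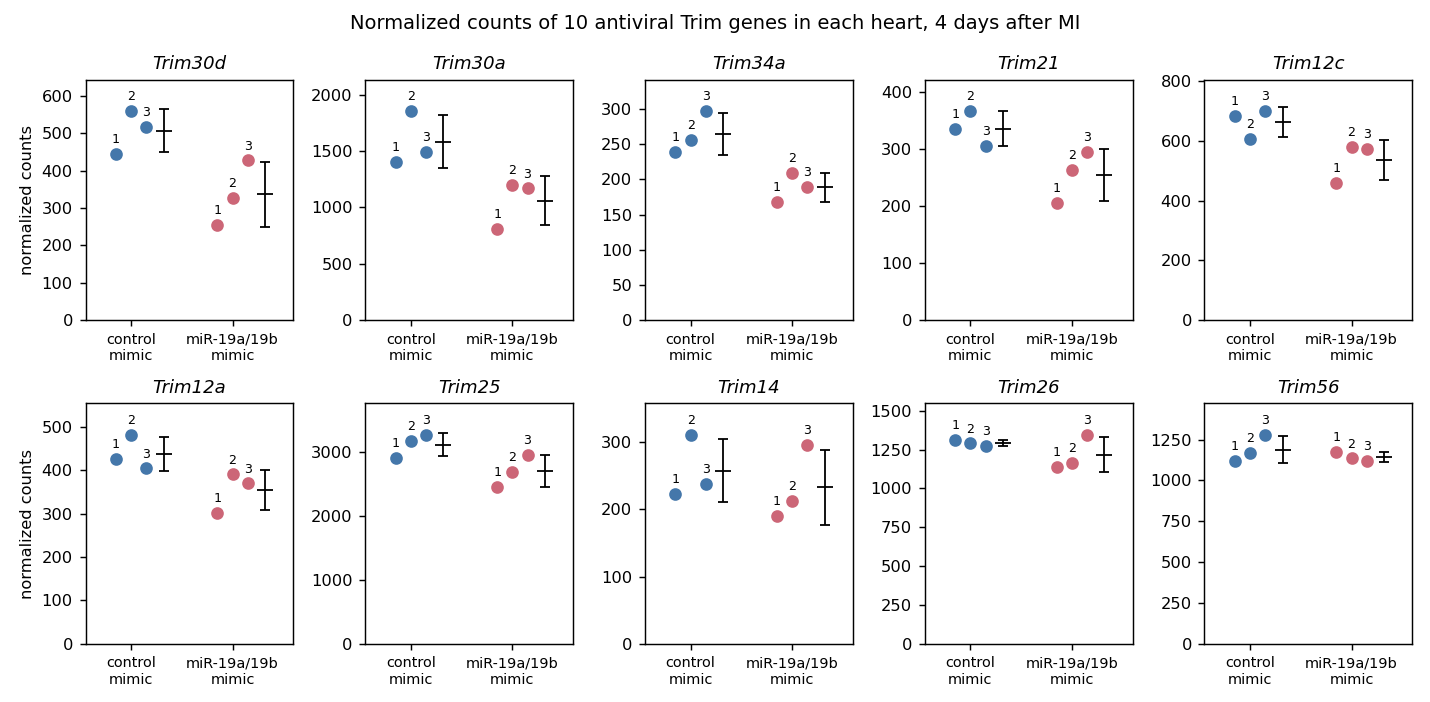
Normalized counts (vertical axes from 0) of the 10 Trim genes in each heart. Points are hearts, numbered by replicate, in control mimic (left) and miR-19a/19b mimic (right), and bars are mean ± SD (n = 3). The 6 genes from Trim30d to Trim12a, all on chromosome 7, have no overlap between groups, and replicate 1 is the lowest miR-19a/19b mimic heart in 9 of the 10.

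The largest differences were in the Trim30 genes. Trim30a (ENSMUSG00000030921, chromosome 7 from 104409025 to 104465193, minus strand, GRCm38) is induced by Toll-like receptor signals and restrains NF-κB by removing the adaptors Tab2 and Tab3. It had 1401, 1853 and 1494 normalized counts in control mimic replicates 1, 2 and 3, against 809, 1200 and 1168 in the same order after miR-19a/19b mimic. The highest miR-19a/19b mimic heart was thus below the lowest control heart. The means were 1583 ± 239 (SD, n = 3) and 1059 ± 217, a log2 fold change of -0.59 with a standard error of 0.17 and a 95% confidence interval of -0.98 to -0.20. The unadjusted p from limma was 0.00749 and the adjusted p 0.9996. It stayed under 0.05 unadjusted in each of the 6 limma fits with a heart left out, with log2 fold changes between -0.69 and -0.41, the latter without miR-19a/19b mimic replicate 1.

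Trim30d (ENSMUSG00000057596, chromosome 7 from 104470014 to 104507849, minus strand), the neighbour of Trim30a, had 445, 559 and 517 normalized counts in control hearts and 254, 328 and 427 in miR-19a/19b mimic hearts. Again no heart overlapped between groups, with control replicate 1 and miR-19a/19b mimic replicate 3 closest. The mean went from 507 ± 57.5 to 336 ± 86.9 (SD, n = 3), a log2 fold change of -0.62 (standard error 0.19, 95% confidence interval -1.04 to -0.19). Limma gave an unadjusted p of 0.00922 and an adjusted p of 0.9996. Without miR-19a/19b mimic replicate 1 the log2 fold change was -0.43, with an unadjusted p of 0.0276 from limma. The highest unadjusted p with a heart left out was 0.0400, without control mimic replicate 2. Without miR-19a/19b mimic replicate 3 the log2 fold change was -0.81 with an adjusted p of 0.0210 from limma, the one fit in which a member passed, and in that fit 164 genes were lower and 383 higher over the whole table. The transcripts of Trim30a and Trim30d align over 1719 bases at 90.1% identity, so some of their reads may map to either gene.

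Trim34a (ENSMUSG00000056144), the mouse counterpart of human TRIM34, was also lower in each heart of the miR-19a/19b mimic group. Control hearts held 239, 257 and 297 normalized counts and miR-19a/19b mimic hearts 168, 209 and 189. The mean went from 264 ± 29.9 to 189 ± 20.7 (SD, n = 3), a log2 fold change of -0.48 (standard error 0.14). The unadjusted p from limma was 0.00817 and the adjusted p 0.9996. Without miR-19a/19b mimic replicate 1 the log2 fold change of Trim34a was -0.40 (unadjusted p = 0.0317 from limma), and without replicate 3 of that group -0.49. The value of Trim34a is uncertain for a reason of annotation. The deposited gene spans chromosome 7 from 104244457 to 104340693 on the plus strand, while GENCODE M21 ends it at 104262234, and the longer span overlaps those of Trim5, Trim12a, Trim34b and Trim12c. Its transcripts align to Trim34b over 1827 bases at 98.7% identity, and Trim34b was listed at no more than 6.83 normalized counts in any heart.

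Trim12a and Trim12c belong to the rodent relatives of TRIM5, which binds the capsid of retroviruses. Trim12c (ENSMUSG00000057143, chromosome 7 from 104338754 to 104353362, minus strand) had 685, 607 and 701 normalized counts in control hearts and 459, 579 and 573 in miR-19a/19b mimic hearts. The gap between groups was narrow, from 579 to 607, and the log2 fold change was -0.31 (standard error 0.12, unadjusted p = 0.0348 and adjusted p = 0.9996 from limma). Trim12a (ENSMUSG00000066258, chromosome 7 from 104299894 to 104315466, minus strand) had 427, 482 and 405 in control hearts and 302, 391 and 370 in miR-19a/19b mimic hearts. Its log2 fold change was likewise -0.31 (standard error 0.13, unadjusted p = 0.0464 and adjusted p = 0.9996 from limma). For both genes miR-19a/19b mimic replicate 1 was the lowest heart, and without it the log2 fold changes were -0.20 for Trim12c and -0.20 for Trim12a, with unadjusted p-values of 0.134 and 0.172 in limma. Their unadjusted p-values were also above 0.05 without control mimic replicate 1 (0.0993 and 0.0840) or replicate 3 (0.114 and 0.0528) and, for Trim12a, without control mimic replicate 2 (0.153). Trim12a, Trim12c and Trim5 share long stretches of sequence. Trim12a and Trim12c align over 981 bases at 96.5% identity and Trim12c and Trim5 over 3710 bases at 94.6%. How reads that match more than 1 of these genes were counted is uncertain, and so are their levels.

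Trim21 (ENSMUSG00000030966, chromosome 7 from 102557922 to 102565469, minus strand) encodes a cytosolic receptor for antibodies that sends antibody-coated virus to the proteasome. It lies apart from the cluster that holds the other 5 members of chromosome 7. Normalized counts were 335, 366 and 305 in control hearts and 205, 263 and 294 in miR-19a/19b mimic hearts. Control replicate 3 and miR-19a/19b mimic replicate 3 were closest, at 305 and 294. The log2 fold change was -0.41 (standard error 0.15, 95% confidence interval -0.76 to -0.06), with an unadjusted p of 0.0265 and an adjusted p of 0.9996 from limma. Without miR-19a/19b mimic replicate 1 it was -0.27, with an unadjusted p of 0.0978, and without control mimic replicates 1 or 2 the unadjusted p was 0.0653 or 0.0913.

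For each of these 6 genes an exact two-sided permutation test over the 3 against 3 hearts gave p = 0.1, the smallest value that this number of hearts allows. Any gene whose groups do not overlap gives that value, so it adds nothing to the lack of overlap. The study calls the hearts biological replicates, and their litters and days are not stated, so the tests measure the spread between these hearts.

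The 4 members on other chromosomes act on the sensing pathways themselves. Trim25 (ENSMUSG00000000275, chromosome 11 from 88999376 to 89020293, plus strand), the ligase that joins ubiquitin to the RNA sensor RIG-I and Isg15 to other proteins, had 2907, 3162 and 3264 normalized counts in control hearts and 2455, 2686 and 2951 in miR-19a/19b mimic hearts. Only miR-19a/19b mimic replicate 3 reached into the control range, and the log2 fold change was -0.21 (standard error 0.11, 95% confidence interval -0.46 to 0.04, unadjusted p = 0.0904 and adjusted p = 0.9996 from limma). Without miR-19a/19b mimic replicate 3 it was -0.27, with an unadjusted p of 0.0141.

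Trim14 (ENSMUSG00000039853, chromosome 4 from 46493781 to 46536141, minus strand) lacks a RING finger and works as an adaptor with Mavs at mitochondria. Its normalized counts were 223, 311 and 238 in control hearts and 190, 212 and 296 in miR-19a/19b mimic hearts. The groups overlapped widely, with a log2 fold change of -0.16 and a 95% confidence interval of -0.60 to 0.29 that holds differences as large as those of Trim30a. The estimate lay between -0.34, without miR-19a/19b mimic replicate 3, and -0.01, without control mimic replicate 2. Of its 4338 exon bases, 1356 are shared with Nans on the other strand, and whether reads were counted by strand is not stated. Nans itself went from 1330 ± 170 to 1423 ± 293 normalized counts (SD, n = 3).

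Trim26 (ENSMUSG00000024457, chromosome 17 from 36837134 to 36859398, plus strand), which acts on signalling through Tbk1 and Irf3, varied little among control hearts, at 1314, 1289 and 1274 normalized counts. In miR-19a/19b mimic hearts it was at 1140, 1163 and 1345, replicates 1 and 2 below every control heart and replicate 3 above every one. The log2 fold change was -0.09 (95% confidence interval -0.32 to 0.14), and it was -0.17 without miR-19a/19b mimic replicate 3 and -0.05 without replicate 1 of that group.

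Trim56 (ENSMUSG00000043279, chromosome 5 from 137105644 to 137116209, minus strand), a ligase of the DNA sensing adaptor Sting, had 1121, 1167 and 1280 normalized counts in control hearts and 1175, 1135 and 1121 in miR-19a/19b mimic hearts. All 3 miR-19a/19b mimic hearts lay within the control range, with a log2 fold change of -0.05 (95% confidence interval -0.27 to 0.16). A decrease as large as the estimate for Trim30a, -0.59, lies outside the intervals of Trim26 and Trim56 and inside that of Trim14.

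The members differed in level. Per kb of deposited gene length, which counts exon bases, Trim25 was highest in control hearts at 541 ± 32 normalized counts per kb (SD, n = 3). Trim30a followed at 358 ± 54.0, then Trim26 at 188 ± 2.93, Trim12c at 178 ± 13.4, Trim30d at 135 ± 15.3, Trim56 at 128 ± 8.82, Trim21 at 121 ± 10.9, Trim12a at 75.7 ± 6.91, Trim34a at 62.1 ± 7.02 and Trim14 at 59.4 ± 10.9. Among neighbours in this order, the ranges of the 3 control hearts overlapped for Trim26 and Trim12c, Trim30d and Trim56, Trim56 and Trim21, and Trim34a and Trim14, so these pairs do not differ beyond their spread. In miR-19a/19b mimic hearts Trim30a, at 240 ± 49.1 per kb, still had the second mean, with its hearts overlapping those of Trim26 at 177 ± 16.3, while Trim30d, at 89.5 ± 23.1, lay below Trim56, at 123 ± 3.004. The deposited length of Trim34a belongs to its longer gene model, so its level per kb is uncertain too.

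**Figure D2:**
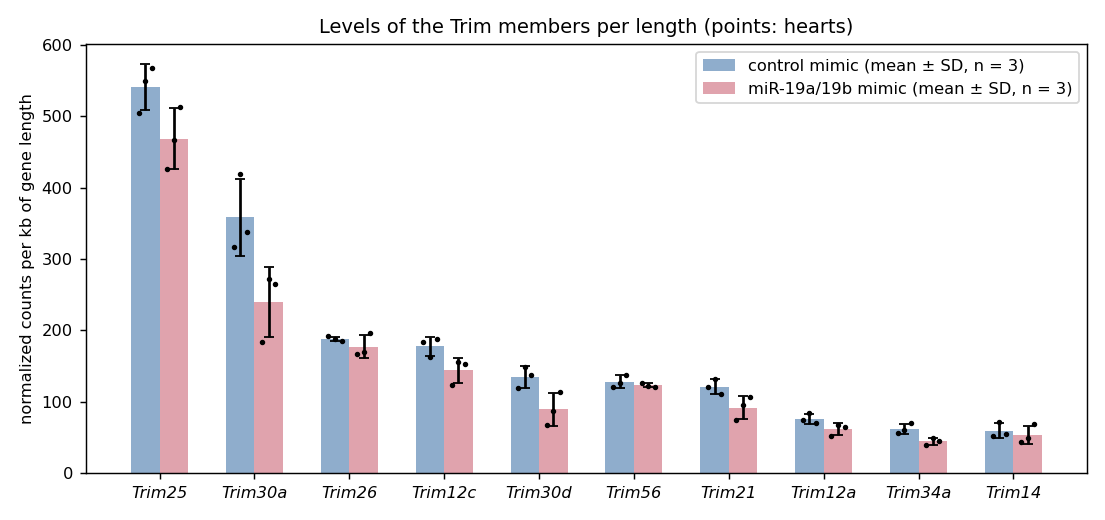
Normalized counts per kb of gene length (vertical axis from 0) for the 10 Trim genes, ordered by their level in control hearts. Bars are means with SD (n = 3) and points are hearts. Trim25 and Trim30a have the highest means in both groups, although in miR-19a/19b mimic hearts the points of Trim30a and Trim26 overlap, and Trim30a has the widest gap between groups, from 358 to 240.

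Hearts differed in how low the members stood. Relative to the control mean, the mean log2 level of the 6 chromosome 7 members was -0.08, 0.08 and 0.00 in control replicates 1, 2 and 3, against -0.72, -0.34 and -0.30 in the same order after miR-19a/19b mimic. That of the other 4 members was -0.09, 0.07 and 0.02 in control hearts and -0.24, -0.17 and 0.03 in miR-19a/19b mimic hearts. Replicate 1 was thus the lowest heart of the miR-19a/19b mimic group in both sets, and the lowest of all 6 hearts for 9 of the 10 genes, Trim56 being the exception. The same heart was lowest for a list of 28 interferon-induced genes that holds no Trim gene, such as Isg15 and Ifit1, at -0.99 against -0.46 and -0.54 in the other miR-19a/19b mimic hearts.

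**Figure D3:**
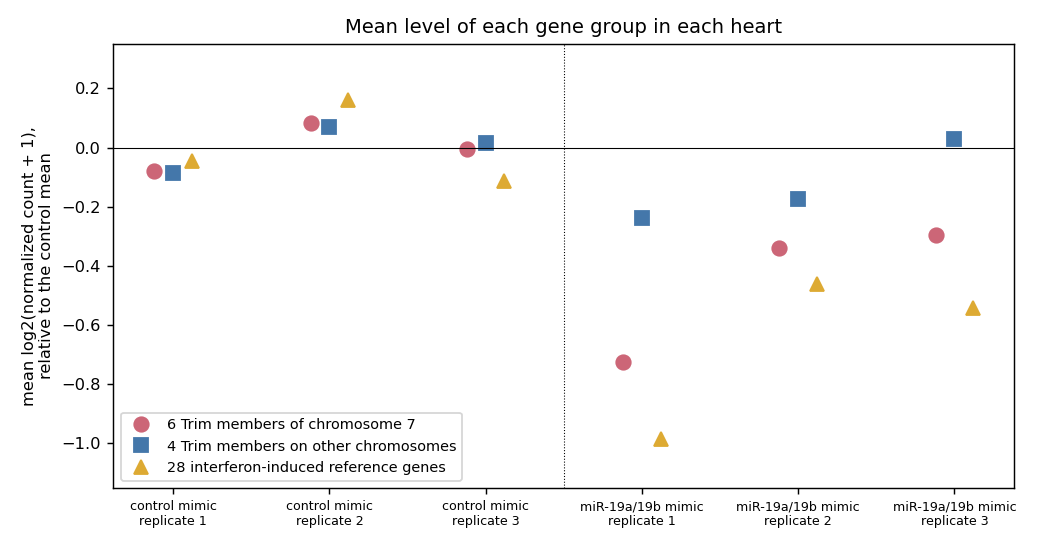
Mean log2(normalized count + 1) relative to the mean of the control hearts (vertical axis), in each of the 6 hearts (horizontal axis), for the 6 Trim members of chromosome 7 (circles), the 4 on other chromosomes (squares) and 28 interferon-induced reference genes (triangles). The circles lie at -0.72, -0.34 and -0.30 in the 3 miR-19a/19b mimic hearts, and the squares between -0.24 and 0.03.

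Among the genes whose log2 levels followed the mean of the members most closely over the 6 hearts were Tmem68, Pyhin1, Parp14 and Stat2, with Pearson r between 0.989 and 0.996. They were taken from 11599 genes with a mean of at least 100 normalized counts, of which 196 had r above 0.9. With 6 hearts in 2 groups this is a description and has no test. Pyhin1, Parp14 and Stat2 are known to be induced by interferon. Pyhin1 went from 888 ± 142 to 546 ± 142 normalized counts (SD, n = 3) and Parp14 from 2217 ± 245 to 1473 ± 254.

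The other Trim genes, which serve in muscle, development and the nucleus as well as in defence, were spread around 0. Of the 47 tested, 28 had a negative and 19 a positive log2 fold change, with a median of -0.06. Limma's unadjusted p-value was under 0.05 for 3 lower and 0 higher genes, against 2.63% and 1.39% of all genes tested. Without miR-19a/19b mimic replicate 3 the counts were 5 and 4, against 1289 lower and 1778 higher of all 21202 genes in that fit. No more than 2 of the other Trim genes were lower with any other heart left out. With all 6 hearts, 1 was lower with DESeq2 and 2 with edgeR's quasi-likelihood test. The 3 that limma had lower with all 6 hearts were Trim30b, Trim16 and Trim36. Trim30b lies within the cluster of chromosome 7 and went from 121 ± 25.6 to 83.0 ± 10.6 normalized counts (SD, n = 3), a log2 fold change of -0.52, although miR-19a/19b mimic replicate 3, at 93.4, was above control replicate 3, at 92.5. Trim16 went from 382 ± 24.6 to 316 ± 13.1, and Trim36 from 59.8 ± 6.99 to 42.3 ± 7.76, both without overlap. Trim37 was higher without overlap, going from 444 ± 24.5 to 487 ± 25.5. Of the 47, 2 were thus lower and 1 higher without overlap, against 5.3% and 3.9% of all genes tested. Of the neighbours in the cluster, Trim5 had a log2 fold change of -0.23, Trim30c of -0.83 at a mean of 34.1 normalized counts in control hearts, and Trim6 of -0.16, and all 3 overlapped between groups.

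The highest of the other Trim genes per length were Trim72, Trim47 and Trim54. Trim72 encodes a membrane repair protein of striated muscle and Trim54 a sarcomere ligase. Trim72 had 6140 ± 1140 normalized counts (SD, n = 3) in control and 6338 ± 2678 in miR-19a/19b mimic hearts, and Trim47 had 3964 ± 186 and 4284 ± 411. Trim54 had 1757 ± 377 and 1999 ± 978, and all 3 genes overlapped between the groups.

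**Figure D4:**
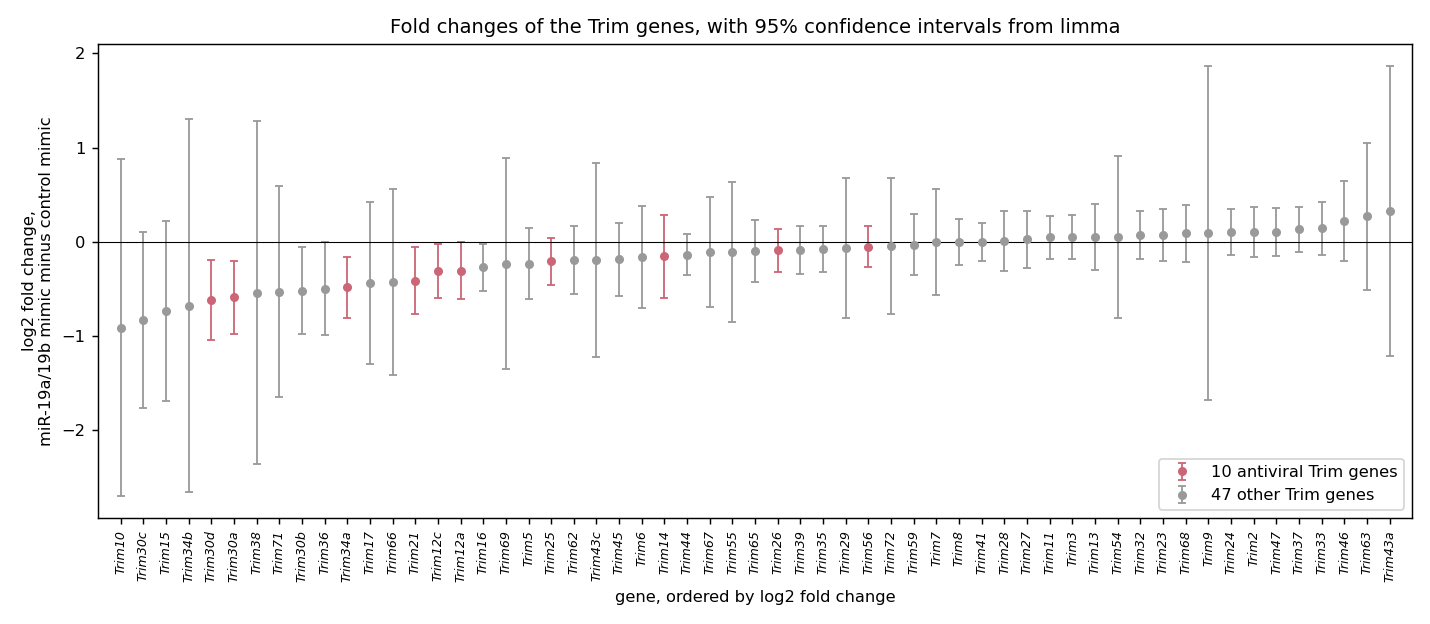
Log2 fold change (vertical axis, miR-19a/19b mimic minus control mimic) of each tested Trim gene, ordered from lowest to highest. Red points are the 10 antiviral members, grey points the 47 other Trim genes, and bars are 95% confidence intervals from limma. All 10 red points lie below 0, the intervals of 6 of them do not reach it, and the median is -0.31 against -0.06 for the grey points.

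The pathway in which Trim25, Trim14, Trim26 and Trim56 work was described by a list of RIG-I-like receptor and Sting signalling genes, all 22 of those in the table being tested. At an unadjusted p-value under 0.05 limma had 4 lower and 0 higher, with a median log2 fold change of -0.08. That median was -0.14 with replicate 3 of either group left out. The 4 were the sensors Ifih1 (Mda5), Ddx58 (RIG-I) and Dhx58 and the transcription factor Irf7. Ddx58, the sensor that Trim25 modifies, had 1473, 1901 and 1563 normalized counts in control hearts and 951, 1187 and 1258 in miR-19a/19b mimic hearts, with no overlap and a log2 fold change of -0.54. Ifih1 went from 858 ± 104 to 578 ± 38.4 normalized counts (SD, n = 3), Dhx58 from 628 ± 87.9 to 384 ± 94.2 and Irf7 from 5031 ± 936 to 3021 ± 526. Without miR-19a/19b mimic replicate 3, 8 genes of this list were lower and 1 higher, against 1289 and 1778 of all 21202 genes in that fit.

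Among 17 genes of interferon receptor signalling, limma's unadjusted p-value was under 0.05 for 4 lower and 0 higher genes, with a median log2 fold change of -0.15. They included Stat2 and Irf9, factors that act at the response element searched for above, and Usp18, which removes Isg15. Stat2 went from 2027 ± 177 to 1354 ± 223 normalized counts (SD, n = 3) and Usp18 from 555 ± 148 to 308 ± 65.4. Irf9 went from 1567 ± 113 to 1246 ± 137, and none of these 3 genes overlapped between groups. The count was 8 without miR-19a/19b mimic replicate 3, a fit in which 1289 of all 21202 genes were lower. All 28 of the interferon-induced reference genes had a lower mean, 26 of them with limma's unadjusted p-value under 0.05, and their median log2 fold change was -0.64. That median was -0.47 without miR-19a/19b mimic replicate 1 and -0.70 without replicate 3 of that group. The reference genes with the smallest unadjusted p were Ifi44, Ifit2, Oas3 and Irgm1, each without overlap. Ifi44 went from 675 ± 54.4 to 305 ± 88.2 normalized counts (SD, n = 3), Ifit2, whose product binds viral RNA, from 1708 ± 102 to 1037 ± 125, Oas3, which senses double-stranded RNA, from 883 ± 66.8 to 470 ± 104 and Irgm1, a GTPase of cell-autonomous defence, from 1727 ± 192 to 1043 ± 172.

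The next list held enzymes that hand ubiquitin or Isg15 to ligases such as the Trim proteins, and ubiquitin itself. Of 18 genes limma's unadjusted p-value was under 0.05 for 1 lower and 0 higher, with a median log2 fold change of -0.05. The lower gene was Uba7, the activating enzyme for Isg15, at 1604, 1806 and 1470 normalized counts in control hearts and 1035, 1290 and 1272 in miR-19a/19b mimic hearts. Ube2l6, the conjugating enzyme for Isg15, overlapped between groups, at 1054 ± 220 and 820 ± 136 (SD, n = 3). Among 12 genes of the NF-κB branch that Trim30a restrains, 0 were lower and 0 higher at that threshold, with a median of -0.08. Without miR-19a/19b mimic replicate 3, 1 was lower, and without control mimic replicate 2 the median was -0.03. Its target Tab2 went from 2005 ± 160 to 1809 ± 104 normalized counts, with overlap between groups. Without replicate 3 of either group, 2 of the 18 genes of the ubiquitin and Isg15 list were lower. These lists were read beside all genes, of which 2.63% were lower and 1.39% higher at that threshold.

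In tissue such as this, fewer cells of a type and less RNA per cell cannot be told apart. Leukocyte markers moved with the members in part. Of 9 T cell markers all 9 had a lower mean, 3 of them (Lck, Trac and Cd8a) with limma's unadjusted p-value under 0.05, and their summed level was between 280 and 397 normalized counts in control hearts and between 215 and 244 in miR-19a/19b mimic hearts. Of 10 macrophage and monocyte markers 8 had a lower mean and 2 (Ly6c2 and Ccr2, which mark inflammatory monocytes) passed that threshold. Ly6c2 was at 818, 748 and 465 normalized counts in control hearts and at 148, 268 and 176 in miR-19a/19b mimic hearts. The summed macrophage and monocyte level overlapped, from 80343 to 94282 in control and from 65372 to 99660 in miR-19a/19b mimic hearts, as did those of the neutrophil markers (1541 to 1853 and 743 to 2410) and the B cell markers (159 to 185 and 130 to 249). In each of these lists miR-19a/19b mimic replicate 1 was the lowest of all hearts, replicate 2 came between and replicate 3 was the highest. The mean log2 level of the members rose in the same order, at -0.53, -0.27 and -0.17 relative to the control mean. The T cell sums did not follow that order, at 232, 215 and 244. The sums of 8 fibroblast, 6 endothelial and 5 smooth muscle markers overlapped as well, and of these genes Cnn1 of smooth muscle alone had an unadjusted p-value under 0.05 in limma, at 815 and 530 normalized counts. The part of these cells in the lower Trim values was not tested.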

How the data were processed

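Polyadenylated RNA of 6 hearts was sequenced. Per the labels and the study's methods, the authors removed adapter and low-quality reads, aligned the rest with STAR (2.5.1b) and counted reads per gene with HTSeq (0.6.0). The submitters' processing notes name DESeq2 (1.10.1), the methods edgeR. The deposited signal holds normalized counts, that is HTSeq counts scaled by library size factors by the authors, and 100% of values in each library were whole multiples of 1 read within a tolerance of 0.01, so reads could be recovered. The notes name mm9, but all 25884 gene identifiers found in GENCODE M21 (GRCm38) lay on the same chromosome and 82.7% had equal starts and ends, and the deposited coordinates are therefore printed as GRCm38. The authors' own fold changes and p-values (3 columns) and their shorter table of selected genes were not used.

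Groups were compared with limma 3.58.1 (R 4.3.3, trended prior) on log2(normalized count + 1) over genes with a mean of at least 1, with Benjamini-Hochberg adjustment over all genes tested. The tests of edgeR 4.0.16 and DESeq2 1.42.0 on the recovered reads were alternatives, with those listed at the end. A fold change on this scale understates that of genes with few reads. Members had between 156 and 3494 reads per heart. The method was tested on simulated data. Hearts of 1 group were not repeats of 1 library (chi-square over genes, per degree of freedom, 10.3 to 135). Near copies were sought with blastn 2.17.0 among GENCODE M21 transcripts (at least 100 aligned bases).

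Members and lists were chosen with earlier results of these data known. Named genes were all members, the 3 other Trim genes highest per length and up to 5 with the smallest unadjusted p under 0.05, up to 4 such genes of each pathway list, and the 5 most like the members' mean. Ube2l6, Tab2, Trim5, Trim30c, Trim6, Trim34b, Trim37 and the monocyte markers were named after their values were seen. Comparison of protein sequences was not run. The promoter of Trim14 was not analysed here, and some genes that the rule names are not reported here.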

Additional observations from a re-analysis of the deposited data

How the results depend on the processing

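All 10 members kept a negative log2 fold change in every alternative run: DESeq2, edgeR's quasi-likelihood test with TMM, limma-voom, TMM scaling, no filter, a minimum of 10 reads in every heart, the pseudocount set to 0.1, a replicate block, and each heart left out in turn. Limma called 0 genes lower and 0 higher at an adjusted p-value under 0.05. DESeq2 called 28 and 1. With miR-19a/19b mimic replicate 3 left out 164 genes were lower and 383 higher, and with any other heart left out 0 and 0. The 6 members lower at an unadjusted p-value under 0.05 were 3 to 7 with a heart left out, 3 if replicate 1 of either group was omitted and 7 if replicate 3 of the miR-19a/19b mimic group was. The cause was not tested. With all 6 hearts the count was 4 with DESeq2 and 5 or 6 with the other alternatives that had no block. Over all genes, those lower at that threshold were 555 in limma and 402 to 611 in the alternatives with all 6 hearts, and those higher 293 and 147 to 370. With a heart left out, 369 to 1289 genes were lower and 208 to 1778 higher. The highest of both came without miR-19a/19b mimic replicate 3, the fit with 7 members lower.

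Same-numbered hearts of the 2 groups did not deviate together (correlation of deviations from the group means across genes -0.01, -0.02 and -0.11), so the number is not taken as a pairing. With the replicate block 4 members were lower at an unadjusted p-value under 0.05 and 0 genes were called. Of 392 further values over single genes and lists, 373 were the same, 18 moved, 1 (Trim30d, above) passed the threshold and 0 reversed. For lists, the same means a count within 1.5 times or a median within the spread between hearts. For single genes it means the same direction and the same side of an adjusted p-value of 0.05, whatever the size of the fold change. With 3 hearts in a group, the confidence intervals of Trim14, Trim25 and Trim26 hold both no difference and differences of over 0.3 on the log2 scale in size.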

Other observations

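Trim genes of striated muscle, chosen here after their values were seen, varied widely between the miR-19a/19b mimic hearts. Trim63, a ligase of muscle wasting, had 2541, 1609 and 2303 normalized counts in control replicates 1, 2 and 3 against 3662, 3303 and 1362 in the same order after miR-19a/19b mimic. Trim54 had 2010, 1323 and 1938 in control hearts and 2697, 2420 and 881 in miR-19a/19b mimic hearts, and Trim55 had 1007, 856 and 1033 and then 1342, 1124 and 475. Trim72 followed the same order, at 8318, 7405 and 3292 in miR-19a/19b mimic hearts. In each of the 4 genes miR-19a/19b mimic replicate 1 was the highest of all hearts and replicate 3 the lowest, as were the summed cardiomyocyte markers, at 1034730 and 352267 normalized counts, while the antiviral Trim members had replicate 1 as the lowest heart in 9 of 10 genes.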
